A study of Homo sapiens with 6 samples.

Results

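The 34 genes described here encode the enzymes that build fatty acids, lengthen and desaturate them and join them to glycerol, with 3 regulators of these steps. They were taken by symbol from a list that covers carbon supply and de novo synthesis, desaturases, elongases, the other enzymes of the elongation cycle, glycerolipid assembly and regulators. Each symbol matched 1 of the 60623 genes in the tables. Of the 34, 33 passed a filter of at least 1 TPM (a level scaled for gene length and library total) in 3 or more of 6 libraries. ELOVL3 did not, at 0.39 to 0.73 TPM.

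All 6 libraries are bulk RNA-seq of hepatocyte-like cells grown from the H9 line of human embryonic stem cells and taken at day 19 of differentiation, where the sample source reads hepatoblasts. The control group was 3 libraries of cells given 0.1% DMSO, the solvent. The treated group was 3 libraries of cells exposed to HFPO-TA (the trimer acid of hexafluoropropylene oxide), a fluorinated ether carboxylic acid, at a dose printed as 10 with a garbled unit. Whether the treated cells also received the solvent, and whether replicates were separate cultures, is not stated, so p-values measure the spread between libraries of a single cell line, which may be technical.

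In liver, citrate leaves the mitochondrion and is split into acetyl-CoA, which is carboxylated to malonyl-CoA and polymerised to palmitate. Elongases and desaturases of the endoplasmic reticulum turn palmitate and dietary fatty acids into longer and less saturated chains, which are then esterified stepwise to glycerol 3-phosphate to make triglyceride. The transcription factors SREBP-1 and ChREBP are the textbook activators of this programme in response to insulin, sterols and sugar.

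Hepatic markers (ALB, AFP, APOA1, APOA2, APOB, TTR, TF, SERPINA1, FGB and HNF4A) were all detected, with summed levels of 115702 to 129033 TPM with DMSO and 105632 to 114651 TPM with HFPO-TA. FGB, for a fibrinogen chain, was the only one of the 10 that passed the test described next, and it fell from 6737 ± 549 to 3453 ± 409 TPM (SD, n = 3 each; log2 fold change -0.97, adjusted p = 0.0104). The markers did not share a direction, but most were lower. Means of ALB, AFP, APOB, TTR, SERPINA1, FGB and HNF4A were lower with HFPO-TA, and those of APOA1, APOA2 and TF were higher. ALB averaged 113 ± 14.3 and 64.7 ± 9.84 TPM (log2 fold change -0.80, adjusted p = 0.0522) and HNF4A 49.3 ± 3.7 and 38.4 ± 1.21 TPM. APOA2 averaged 5287 ± 666 and 8253 ± 1042 TPM (log2 fold change 0.64, adjusted p = 0.089) and APOA1 20579 ± 1354 and 21420 ± 1484 TPM. AFP, at 76581 ± 4242 and 65021 ± 1828 TPM, made up most of the sum. The adipocyte list of 5 genes summed to 57.6 to 65 and 78.8 to 97.2 TPM, of which CIDEC, a lipid droplet gene, supplied nearly all. CIDEC averaged 59.3 ± 3.72 TPM with DMSO and 88.1 ± 10.8 TPM with HFPO-TA (log2 fold change 0.56, adjusted p = 0.0688). PLIN1, another gene of the list, averaged 2.55 ± 0.183 and 2.62 ± 0.157 TPM. CIDEA reached at most 0.32 TPM, and the adipocyte-defining ADIPOQ and LEP at most 0.02 TPM in any library. The 6 stromal genes summed to 1840, 1177 and 1363 TPM in DMSO replicates 1 to 3 and to 2096, 995 and 960 TPM in HFPO-TA replicates 1 to 3, so replicate 1 was the highest of each group. A letter in the deposited column names, which the labels do not explain, parts the replicates 1 from replicates 2 and 3 in the same way. The 6 neural genes summed to 41.6 to 47.8 and 32.1 to 53 TPM, nearly all from STMN2 and TUBB3. The other 4 stayed below 1 TPM in all 6 libraries. The 5 endothelial genes summed to 43.7 to 54 and 40 to 58.8 TPM, and 6 pluripotency genes to 47.6 to 50 and 49 to 52.4 TPM. TDGF1 was the largest part of the pluripotency sum (means 25.1 TPM with DMSO and 30 TPM with HFPO-TA). Means were lower with HFPO-TA for LIN28A (7.21 and 5.98 TPM), DNMT3B (7.43 and 5.75 TPM) and ZFP42 (8.84 and 7.83 TPM). TDGF1, LIN28A, DNMT3B and ZFP42 did not pass the test. POU5F1 reached at most 1.75 TPM and NANOG at most 0.14 TPM.

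The comparison asked which of these genes differed between HFPO-TA and DMSO. None of the 33 tested members passed limma's test at a Benjamini-Hochberg adjusted p under 0.05 over all genes, where 77 of 15664 tested genes (0.492%) passed, 29 higher (0.185%) and 48 lower (0.306%). Before adjustment, 15 members had a p under 0.05, 7 higher and 8 lower with HFPO-TA, or 45.5% of those tested. Among all tested genes this share was 12.0%, with 5.45% higher and 6.56% lower. The 2 groups of libraries did not overlap for 14 members, 7 higher and 7 lower, or 42.4%. Among all tested genes 17.9% were apart in this way, with 8.55% higher and 9.40% lower. The fitted log2 fold changes, HFPO-TA minus DMSO on log2(TPM + 1), ran from -0.79 to 0.41 with a median of 0.01, and the median of all tested genes was -0.01. With HFPO-TA replicate 1 left out, 4 members passed: SCD and GPAM were higher and SCD5 and MID1IP1 lower, among 296 genes called (1.93%). With replicates 2 and 3 alone, SCD, SCD5, ELOVL5 and MID1IP1 passed among 265 genes (1.78%). In each of the other 5 fits without a library 0 members passed.

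**Figure D1:**
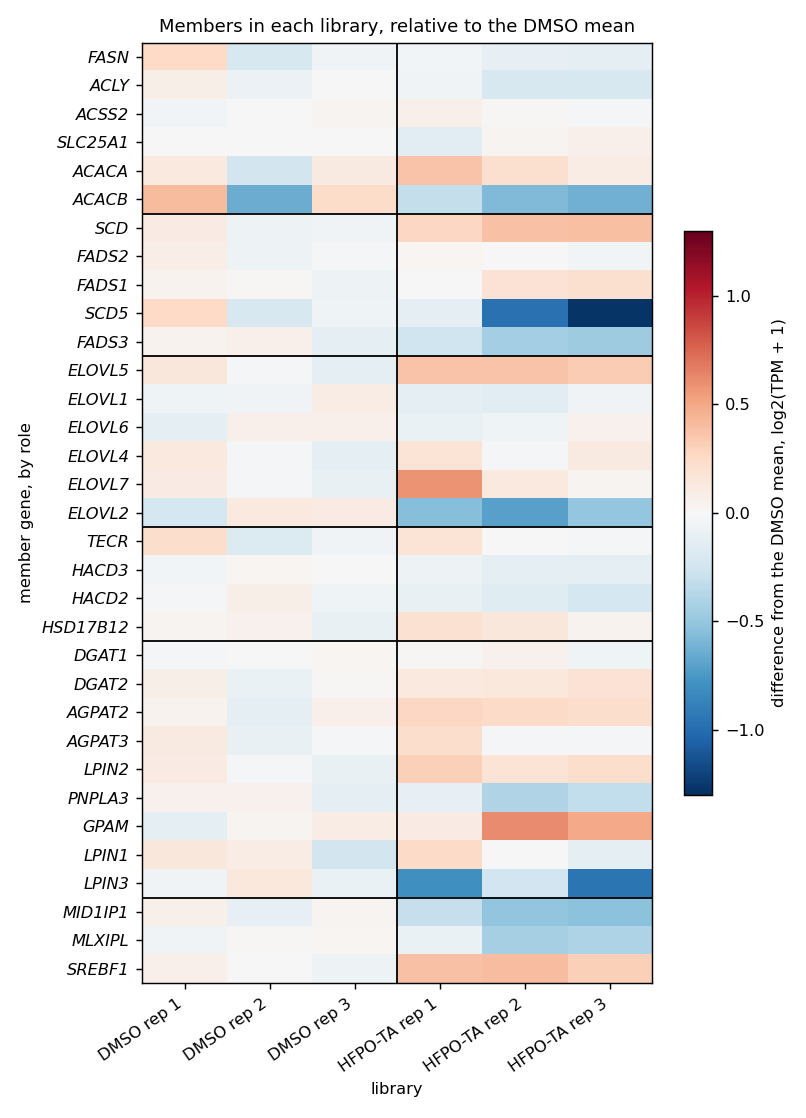
Colour gives each member's difference from its own DMSO mean on log2(TPM + 1) in each of the 6 libraries (columns), with the 33 tested members in rows, ordered by role and then by mean level. Rows differ in direction within the same role, as SCD (783 TPM with HFPO-TA against 614 with DMSO) and SCD5 (12.5 against 21.2) do.

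Of the 6 genes of carbon supply and de novo synthesis, 0 were at an unadjusted p under 0.05 and 0 had groups apart. Among all tested genes these shares were 12.0% and 17.9%, so 0 of 6 lies near them. FASN, the synthase that makes palmitate, stood at 440.49, 317.29 and 355.99 TPM with DMSO and at 357.63, 340.98 and 340.28 TPM with HFPO-TA. The treated values lay inside the control range, and the DMSO libraries spread more widely than the HFPO-TA libraries. Its log2 fold change was -0.09 (SE 0.11, 95% interval -0.34 to 0.17, adjusted p = 0.822). In linear terms the interval runs from 0.789 to 1.12 times the DMSO level, on the TPM + 1 scale.

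ACLY, the lyase that releases acetyl-CoA from citrate, stood at 152.55, 137.24 and 145.18 TPM with DMSO and 140.32, 125.28 and 125.34 TPM with HFPO-TA. Replicate 1 of the treated group fell among the controls and the other two lay below them (log2 fold change -0.15, 95% interval -0.32 to 0.01, adjusted p = 0.449). An antisense RNA, AC125257.2, overlaps its exons on the opposite strand at 45.6 and 44.8 TPM, and whether counting used strand is not stated, so the ACLY value is uncertain. SLC25A1, the citrate carrier of the inner mitochondrial membrane, averaged 108 ± 0.43 and 107 ± 8 TPM (SD, n = 3 each). ACSS2, which makes acetyl-CoA from acetate, averaged 112 ± 2.82 and 114 ± 3.01 TPM. Both lay near a ratio of 1, with 95% intervals of the log2 fold change from -0.17 to 0.15 and from -0.11 to 0.16.

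The 2 acetyl-CoA carboxylases had fold changes of opposite sign, and neither passed the test. ACACA, the cytosolic form that feeds synthesis, averaged 26.6 ± 3.77 TPM with DMSO and 31.1 ± 3.07 TPM with HFPO-TA (log2 fold change 0.22, SE 0.12, adjusted p = 0.536). ACACB, the form at the mitochondrial surface whose malonyl-CoA restrains fatty acid uptake by CPT1, stood at 8.24, 3.44 and 7.21 TPM with DMSO and 4.61, 3.68 and 3.52 TPM with HFPO-TA. DMSO replicate 2 was the lowest of all 6 libraries, so the groups overlap for ACACB (log2 fold change -0.50, SE 0.27, adjusted p = 0.521). As a share of the summed TPM of both genes, ACACA made up 77.8%, 86.6% and 79.9% in the DMSO libraries and 88.2%, 89.3% and 89% in the HFPO-TA libraries, which do not overlap.

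The desaturases held the member with the smallest p. SCD, which places the first double bond in stearate and palmitate and so makes oleate and palmitoleate, was the most abundant member. It stood at 662.6, 585.97 and 594.08 TPM with DMSO and at 741.37, 800.65 and 806.11 TPM with HFPO-TA. Every treated library lay above every control (log2 fold change 0.35, SE 0.06, 95% interval 0.20 to 0.50, adjusted p = 0.0715). The adjusted p was 0.033 with HFPO-TA replicate 1 left out and 0.0157 with replicates 2 and 3 alone. SCD passed in these 2 of 18 settings of the fit only. The adjusted p lay between 0.0642 and 0.333 when any other library was dropped. It was 0.25 without trend and robust estimate, 0.204 with no filter and 0.158 with upper-quartile scaling. In replicate 1 the HFPO-TA library stood at 1.12 times the DMSO library, and in replicates 2 and 3 the ratio of means was 1.36.

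SCD5, the other human stearoyl-CoA desaturase, which rodents lack, stood at 25.43, 18.14 and 20.18 TPM with DMSO and at 19.29, 10.24 and 8.09 TPM with HFPO-TA. HFPO-TA replicate 1 lay among the controls and the other two lay well below them (log2 fold change -0.79, SE 0.29, 95% interval -1.48 to -0.10, adjusted p = 0.346). Its adjusted p was 0.0255 without HFPO-TA replicate 1 and 0.0371 with replicates 2 and 3 alone, the 2 of 18 settings in which SCD5 passed. It lay between 0.449 and 0.667 when any other library was dropped. HFPO-TA replicate 1 was also the treated library highest in the stromal sum (2096 TPM against 995 and 960) and in the neural sum (53 TPM against 33.4 and 32.1). Within the neural sum STMN2 stood at 37.17 against 17.51 and 17.93 TPM, and TUBB3 at 14.25 against 15.09 and 13.07 TPM. The part of other cells in the SCD5 values was not tested. In bulk RNA, fewer cells of a type and less RNA per cell cannot be told apart. SCD5 made up 3.33% ± 0.349 of the summed TPM of the pair in controls and 1.6% ± 0.824 in treated cells (SD, n = 3 each).

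FADS3, a desaturase of the FADS cluster that acts on sphingoid bases, was the other desaturase whose groups were apart. It stood at 8.34, 8.47 and 7.31 TPM with DMSO and 6.54, 5.65 and 5.53 TPM with HFPO-TA (log2 fold change -0.39, SE 0.12, adjusted p = 0.254). FADS1 and FADS2, the delta-5 and delta-6 desaturases of polyunsaturated fatty acid synthesis, averaged 83 ± 3.32 and 180 ± 10.1 TPM with DMSO and 91.3 ± 7.18 and 179 ± 3.91 TPM with HFPO-TA. Their groups overlap, with log2 fold changes of 0.13 (adjusted p = 0.554) and 0.00 to 2 decimals (adjusted p = 0.988). FADS1 and FADS2 overlap each other on opposite strands, so reads in the shared exons may be split between them and both values are uncertain.

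In GENCODE 29 (GRCh38) SCD lies on chromosome 10 from 100347124 to 100364834, SCD5 on chromosome 4 from 82629539 to 82798857, ELOVL5 on chromosome 6 from 53267398 to 53349179 and MID1IP1 on chromosome X from 38801432 to 38806537, all protein-coding. SCD and MID1IP1 had the smallest p among members with higher and with lower values, so the DNA just before their first annotated exon is shown for both, from RefSeq (GRCh38.p14, plus strand). The SCD stretch is chr10:100346983-100347123 and the MID1IP1 stretch is chrX:38801209-38801431. Both read 5′ to 3′, and capitals mark matches on either strand to CCAAT (the core of an NF-Y box), GGGCGG (the core of an Sp1 box) or TCACNCCAC (a form of the sterol regulatory element).
SCD: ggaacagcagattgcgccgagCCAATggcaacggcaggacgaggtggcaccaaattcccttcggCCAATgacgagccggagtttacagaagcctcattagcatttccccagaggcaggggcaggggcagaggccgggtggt
MID1IP1: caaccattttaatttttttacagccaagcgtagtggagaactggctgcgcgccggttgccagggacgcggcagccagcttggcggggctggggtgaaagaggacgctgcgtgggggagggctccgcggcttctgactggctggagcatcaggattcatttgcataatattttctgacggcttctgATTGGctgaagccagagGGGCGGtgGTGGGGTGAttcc

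The SCD stretch held 2 CCAAT matches, both on the plus strand, and 2 GGGCGG matches lie in the part of the same window that is not shown. The MID1IP1 stretch held 1 match to each of the 3 motifs, with CCAAT and the sterol element on the minus strand, and none of the matches overlap. Promoter windows of the 250 bases before the start were found for 28 of the 34 members (41 windows, as some genes have several starts that may overlap), and FASN, HSD17B12, LPIN3, DGAT1, DGAT2 and PNPLA3 had no entry. CCAAT occurred in 19 of the 41 windows (46.3%) and in 32% of all 35116 windows of the table, which include non-coding genes. GGGCGG occurred in 33 (80.5%) against 42.6%, and TCACNCCAC in 1 (2.44%), that of MID1IP1, against 0.883%. The ELOVL5 window held 2 CCAAT matches. A match describes letters in a window and is not evidence of binding.

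Among the elongases, which catalyse the first step of each round that adds 2 carbons, ELOVL5 and ELOVL2 lay on opposite sides. ELOVL5, which lengthens polyunsaturated and some monounsaturated chains, stood at 129.75, 116.28 and 107 TPM with DMSO and at 151.98, 151.44 and 148.09 TPM with HFPO-TA. The 3 treated libraries were close together and all above the controls (log2 fold change 0.36, SE 0.08, 95% interval 0.18 to 0.54, adjusted p = 0.11). With replicates 2 and 3 alone, the only 1 of 18 settings in which ELOVL5 passed, its adjusted p was 0.044. With any 1 library dropped the adjusted p lay between 0.0752 and 0.375. ELOVL2, which takes over at the longest polyunsaturated chains on the way to docosahexaenoate, stood at 2.59, 3.59 and 3.52 TPM with DMSO and at 1.86, 1.58 and 1.96 TPM with HFPO-TA, all lower than any control (log2 fold change -0.59, SE 0.16, adjusted p = 0.198).

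The other elongases showed no separation of the groups. ELOVL1, for saturated very long chains, averaged 110 ± 6.62 and 102 ± 4.13 TPM. ELOVL6, which extends palmitate to stearate, averaged 16.8 ± 1.31 and 16.4 ± 0.92 TPM, with a 95% interval of the log2 fold change from -0.26 to 0.20. ELOVL4 and ELOVL7 averaged 4.88 ± 0.518 and 2.44 ± 0.237 TPM with DMSO and 5.27 ± 0.429 and 3.13 ± 0.876 TPM with HFPO-TA. ELOVL5 made up 49.4%, 46.3% and 42.3% of the summed TPM of the 7 elongases with DMSO and 54.2%, 54.8% and 52.4% with HFPO-TA. The share of ELOVL1 was 40.4% to 46.6% with DMSO and 35.8% to 37.8% with HFPO-TA. ELOVL5 was thus the most abundant elongase in 5 of the 6 libraries, and ELOVL1 led in DMSO replicate 3.

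Of the 4 other enzymes of the elongation cycle, HACD2 and HACD3, dehydratases of the third step, were the 2 whose groups were apart. This is 50%, against 17.9% of all tested genes. HACD2 stood at 94.14, 100.32 and 91.6 TPM with DMSO and 89.08, 85.54 and 81.23 TPM with HFPO-TA (log2 fold change -0.16, SE 0.07, adjusted p = 0.402). HACD3 stood at 96.61, 101.1 and 99.34 TPM and at 94.38, 91.17 and 91.15 TPM (log2 fold change -0.10, SE 0.06, adjusted p = 0.55). TECR, the reductase that closes the cycle, stood at 140.08, 105.29 and 115.89 TPM and at 135.21, 120.39 and 118.33 TPM. It was highest in replicate 1 of both groups, and DNAJB1 overlaps its exons on the opposite strand at 71.7 and 77.4 TPM. HSD17B12, the ketoreductase of the second step, averaged 62.3 ± 3.46 and 68.3 ± 3.82 TPM, and its groups overlap.

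**Figure D2:**
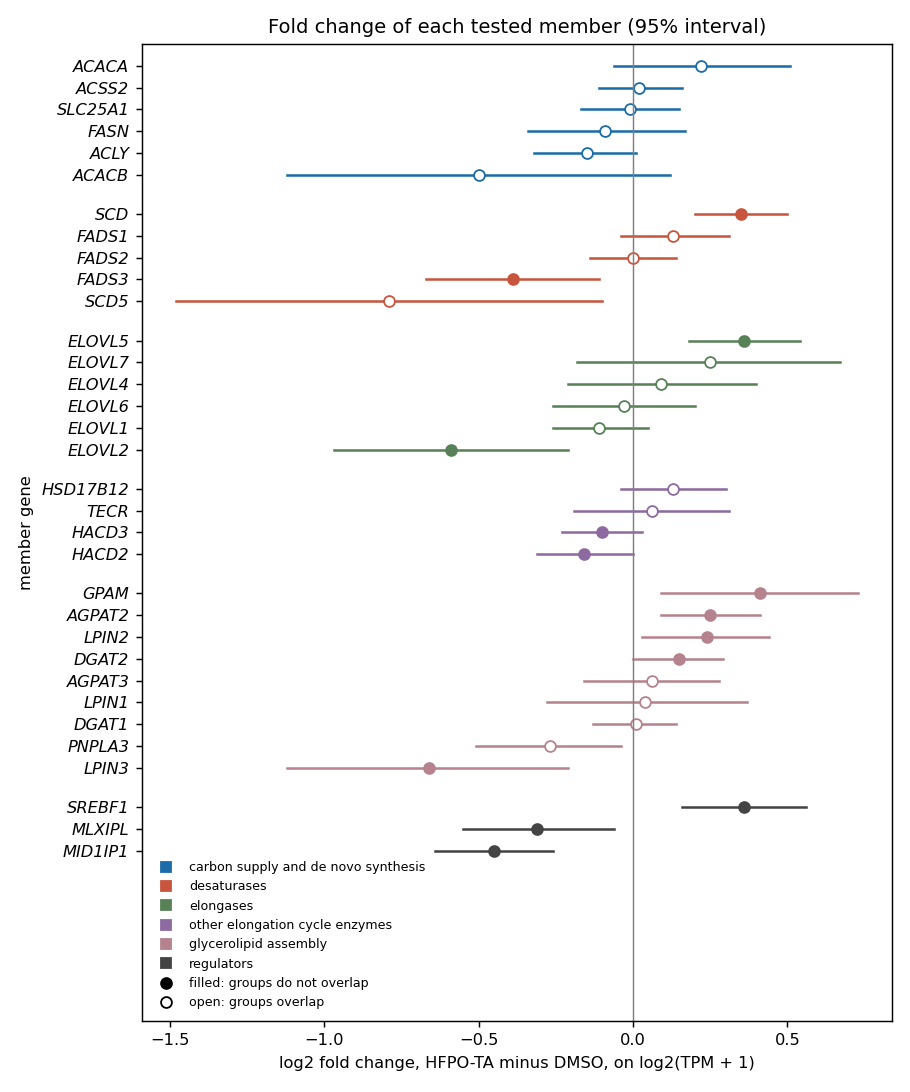
The x axis gives the log2 fold change (HFPO-TA minus DMSO, on log2(TPM + 1)) with its 95% interval for each of the 33 tested members, grouped by role; filled points mark the 14 members whose groups do not overlap. Values run from -0.79 (SCD5) to 0.41 (GPAM), and all 3 regulators are filled.

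Glycerolipid assembly held 6 of the 15 members at an unadjusted p under 0.05, 4 of them higher (GPAM, AGPAT2, LPIN2 and DGAT2) and 2 lower (LPIN3 and PNPLA3). These are 66.7% of its 9 genes, beside 12.0% of all tested genes, 5.45% higher and 6.56% lower. The same 4 were apart from the controls on the higher side, against 8.55% of all tested genes. AGPAT2, which adds the second acyl chain, stood at 80.45, 71.78 and 81.39 TPM with DMSO and at 93.96, 92.52 and 91.31 TPM with HFPO-TA (log2 fold change 0.25, SE 0.07, adjusted p = 0.202). Every treated library was above every control. GPAM, the mitochondrial acyltransferase that commits fatty acids to glycerolipid, stood at 20.97, 23.62 and 24.61 TPM with DMSO and 24.95, 35.89 and 32.71 TPM with HFPO-TA. HFPO-TA replicate 1 lay just above the highest control and the other two well above it (log2 fold change 0.41, SE 0.14, 95% interval 0.09 to 0.73, adjusted p = 0.285). The adjusted p was 0.0474 without HFPO-TA replicate 1, the only 1 of 18 settings in which GPAM passed.

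The 3 lipins are phosphatases that turn phosphatidate into diacylglycerol, and their fold changes had both signs. LPIN3 stood at 5.85, 6.78 and 5.65 TPM with DMSO and at 3.07, 4.97 and 2.67 TPM with HFPO-TA, below all controls (log2 fold change -0.66, SE 0.20, adjusted p = 0.234). LPIN2 stood at 28.65, 26.25 and 24.73 TPM and at 33.03, 30.03 and 31.14 TPM, above all controls (log2 fold change 0.24, SE 0.09, adjusted p = 0.33). LPIN1, also a coactivator of fatty acid oxidation genes in liver, averaged 19.3 ± 2.85 and 19.9 ± 2.76 TPM, a difference within the spread of either group. LPIN3 made up 10.5%, 12.7% and 12.2% of the summed lipin TPM with DMSO and 5.2%, 9.16% and 5.2% with HFPO-TA, while LPIN2 made up 51.2% ± 2.11 and 57.3% ± 2.92.

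For the last step, DGAT1 and DGAT2 both join the last acyl chain to diacylglycerol. DGAT1 stood at 163.78, 166.37 and 169.72 TPM with DMSO and at 168.77, 173.38 and 159.88 TPM with HFPO-TA, with a 95% interval of the log2 fold change from -0.13 to 0.14. HSF1 overlaps its exons on the opposite strand at 30.2 and 32.5 TPM. DGAT2, the form tied to newly made fatty acids, stood at 146.22, 130.55 and 140.33 TPM and at 151.28, 153.25 and 157.79 TPM. Its treated libraries were all above the controls, by a small margin (log2 fold change 0.15, SE 0.06, adjusted p = 0.401). AGPAT3 averaged 54.4 ± 4.2 and 56.9 ± 5.93 TPM.

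PNPLA3, a lipid droplet protein that remodels triglyceride and is a target of SREBP-1, stood at 32.86, 32.77 and 29 TPM with DMSO and at 29.09, 23.84 and 24.99 TPM with HFPO-TA. The highest treated library lay just above the lowest control, so the groups overlap narrowly (log2 fold change -0.27, SE 0.10, adjusted p = 0.331). It shares exon sequence with SAMM50 on the same strand, at 36.9 and 40.4 TPM, so its value is uncertain.

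**Figure D3:**
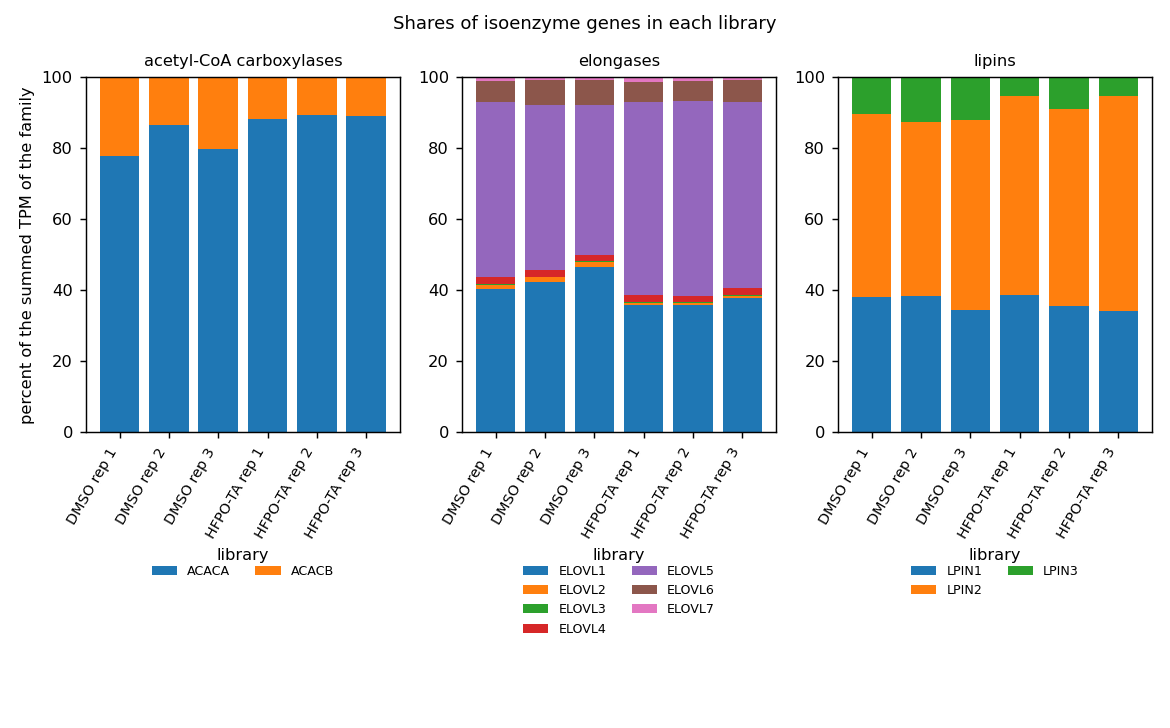
Stacked bars give the percent of a family's summed TPM that each isoenzyme gene supplied in each of the 6 libraries, for the acetyl-CoA carboxylases, the elongases and the lipins. The shares of ACACB (11.2% against 18.6% with DMSO) and LPIN3 (6.52% against 11.8%) are smaller in the 3 HFPO-TA libraries, and that of ELOVL5 (53.8% against 46%) is larger.

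The 3 regulators were all apart between the groups (17.9% of all tested genes were), 1 higher and 2 lower, where 8.55% and 9.40% of all tested genes were. SREBF1, the gene of SREBP-1, stood at 17.48, 16.57 and 15.91 TPM with DMSO and at 21.96, 22.24 and 20.84 TPM with HFPO-TA. The treated libraries were 1.3 times the controls on average with little spread in either group (log2 fold change 0.36, SE 0.09, 95% interval 0.16 to 0.56, adjusted p = 0.133). The ratio was 1.26 in replicate 1 and 1.33 in replicates 2 and 3. The table gives 1 value per gene, so the SREBP-1a and SREBP-1c transcripts are not told apart, and RAI1 overlaps SREBF1 on the opposite strand at 12.6 and 13.4 TPM.

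MID1IP1, which encodes a protein that promotes the polymerisation and activity of acetyl-CoA carboxylase, stood at 163.97, 145.59 and 160.39 TPM with DMSO and at 126.87, 108.99 and 107.46 TPM with HFPO-TA. All treated libraries lay below all controls (log2 fold change -0.45, SE 0.08, 95% interval -0.64 to -0.26, adjusted p = 0.0726). Its adjusted p was 0.0208 without HFPO-TA replicate 1, 0.0345 with replicates 2 and 3 alone and 0.0267 with a term for the column name letter. MID1IP1 passed in these 3 of 18 settings only. The adjusted p lay between 0.158 and 0.333 when any other library was dropped. It was 0.204 without trend and robust estimate, 0.217 with no filter and 0.137 with a mean of at least 0.1 TPM. The ratio was 0.774 in replicate 1 and 0.707 in replicates 2 and 3. MLXIPL, the gene of the sugar-responsive factor ChREBP, stood at 34.97, 36.57 and 36.79 TPM and at 33.99, 26.42 and 27.13 TPM. HFPO-TA replicate 1 lay just below the lowest control, and replicates 2 and 3 lay further down (log2 fold change -0.31, SE 0.11, adjusted p = 0.295). The adjusted p of MLXIPL was 0.0525 without HFPO-TA replicate 1 and lay between 0.356 and 0.635 when any other library was dropped.

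**Figure D4:**
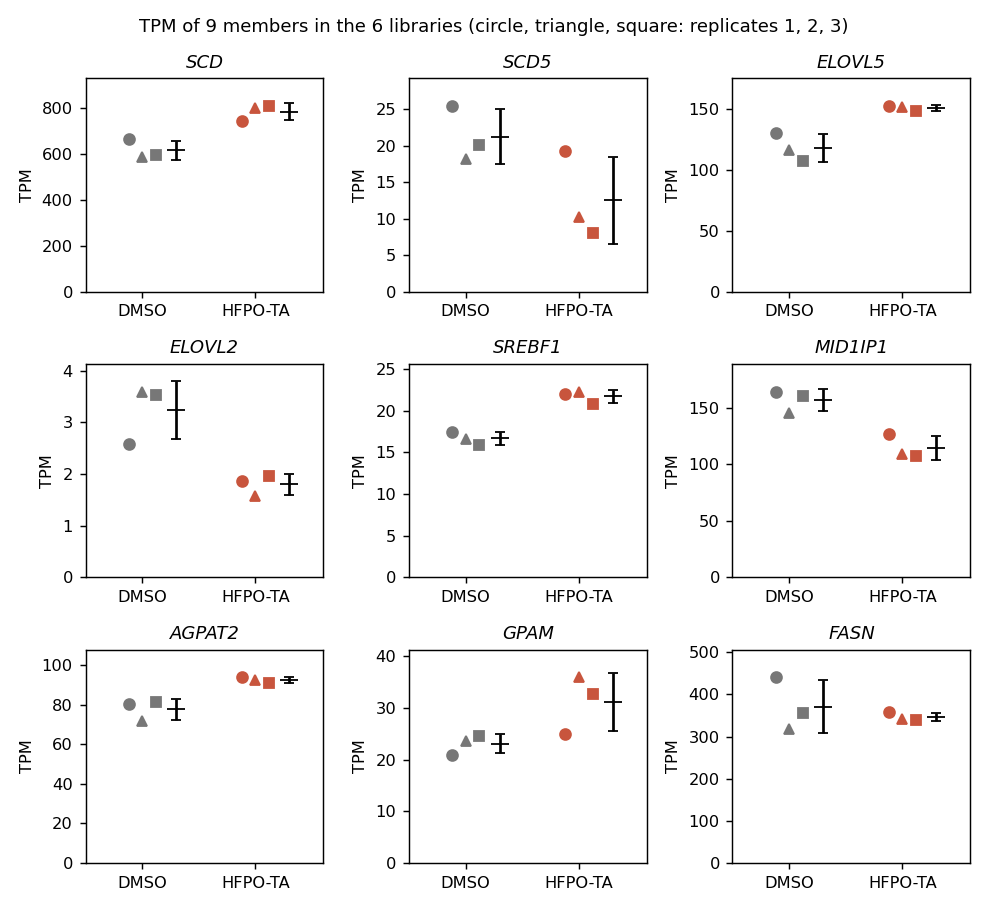
Each panel gives the TPM of 1 member in the 3 DMSO (grey) and 3 HFPO-TA (red) libraries on an axis from 0; the shape marks the replicate number, and the bar gives the mean and SD of 3 libraries. SCD, ELOVL5, SREBF1, AGPAT2 and GPAM are higher in every treated library than in any control, ELOVL2 and MID1IP1 are lower, and SCD5 and FASN overlap.

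The roles can also be set side by side by the summed TPM of their members. De novo synthesis summed to 848.1, 700.5 and 759.9 TPM with DMSO and 752.5, 724.7 and 721.9 TPM with HFPO-TA, which overlap. Desaturases summed to 973.1, 868.5 and 877.1 TPM and to 1034, 1089 and 1092 TPM, most of it SCD. In both elongases (256 ± 6.06 and 280 ± 3.27 TPM, SD, n = 3 each) and glycerolipid assembly (545 ± 14.9 and 583 ± 10.2 TPM) every treated sum was above every control sum, as for desaturases. Regulators summed to 209 ± 9.4 and 165 ± 15.2 TPM, with every treated sum below the controls. The other elongation enzymes summed to 377 ± 15.5 and 370 ± 18.2 TPM. These sums are dominated by their most abundant genes and were not tested. The median log2 fold change was -0.05 for de novo synthesis, 0.00 to 2 decimals for desaturases, 0.03 for elongases, -0.02 for the other elongation enzymes, 0.06 for glycerolipid assembly and -0.31 for regulators, so the larger sums of desaturases and elongases went with medians near 0. All 34 members together made up 0.293% to 0.327% of all TPM with DMSO and 0.319% to 0.324% with HFPO-TA.

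Of 41 other genes of the pathway 36 passed the filter, 1 passed the test as higher and 0 as lower, 5 (13.9%, against 12.0% of all tested genes) were at an unadjusted p under 0.05 and 8 (22.2%, against 17.9%) had groups apart. These shares lie near those of all tested genes. CYB5A, the cytochrome b5 that carries electrons to the desaturases, rose from 287.11, 293.41 and 276.79 TPM with DMSO to 356.54, 380.32 and 400.78 TPM with HFPO-TA (log2 fold change 0.41, SE 0.06, adjusted p = 0.0418). It passed in 7 of 18 settings. Of the 6 that drop a library it passed in 1, without HFPO-TA replicate 1 (adjusted p = 0.0177), and stood between 0.0848 and 0.229 in the others. It was also lost with median-of-ratios scaling (adjusted p = 0.103), upper-quartile scaling (0.151), no filter (0.139), a mean of at least 0.1 TPM (0.0802) and no variance trend (0.174). The other cytochrome b5 genes and reductases in the list (CYB5B, CYB5R1, CYB5R2, CYB5R3 and CYB5R4) did not pass.

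LPCAT3, an acyltransferase that puts polyunsaturated chains into phospholipids, stood at 70.27, 64.05 and 72.2 TPM with DMSO and at 102.48, 89.12 and 103.19 TPM with HFPO-TA (log2 fold change 0.51, SE 0.08, adjusted p = 0.0519). Its treated libraries were all above the controls, with a ratio of 1.46 in replicate 1 and 1.41 in replicates 2 and 3. It passed in 2 of 18 settings, a mean of at least 5 TPM (adjusted p = 0.0332) and the letter term (0.0398), and stood between 0.0521 and 0.229 when a library was dropped. Among the 6 genes of SREBP processing, INSIG1, which holds the SREBP escort SCAP in the endoplasmic reticulum, stood at 188.74, 156.42 and 164.51 TPM and at 212.34, 215.99 and 206.35 TPM (log2 fold change 0.32, SE 0.08, adjusted p = 0.139; 0.0404 with replicates 2 and 3 alone). INSIG1 passed with replicates 2 and 3 alone and in no other of the 18 settings. SCAP itself averaged 87.2 ± 5.09 and 77.5 ± 3.66 TPM (adjusted p = 0.407). SREBF2, the gene of the sterol-directed SREBP-2, stood at 76.83, 64.28 and 70.67 TPM and at 74, 63.27 and 63.38 TPM.

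In each remaining list the gene with the smallest p did not pass the test. MLX, the partner of ChREBP, averaged 25.3 ± 2.05 and 26.9 ± 1.47 TPM. HACD1, another dehydratase of elongation, averaged 28 ± 1.8 and 29.2 ± 2.5 TPM. CBR4, of mitochondrial fatty acid synthesis, averaged 8.86 ± 0.738 and 10 ± 0.284 TPM (adjusted p = 0.626).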

How the data were processed

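RNA was measured in 6 libraries, 3 per group, assigned by sample title. The deposited values are headed FPKM per the file headers, but each column sums to between 995690.06 and 996185.62, so the values the authors deposited were read as TPM. HISAT, Bowtie2, RSEM and GRCh38.p13 appear in the submitters' processing notes with no versions or roles. Annotation, library kit and strand setting: not given in the sources used here. No counts were used and TPM holds no depth, so no counting error can be attached to a value.

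A gene was tested if it reached 1 TPM in at least 3 libraries (15664 genes). The test was limma 3.58.1 in R 4.3.3 on log2(TPM + 1), which understates the change of low genes, with trended and robust variance, 2-sided, Benjamini-Hochberg adjusted over all tested genes at a threshold of 0.05. The script was tested on simulated data.

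The members, lists and tests were chosen with earlier results of these data known. Library values were given for called members and, in each role group, for the 2 with the smallest p and the most abundant one. Other pathway genes were named if called or of the smallest p in their list. SCD5, GPAM, LPIN2, DGAT2, PNPLA3, MLXIPL, SCAP, SREBF2, FGB, APOA1, APOA2, AFP, ALB, HNF4A, STMN2, TUBB3, TDGF1, LIN28A, DNMT3B, ZFP42, CIDEC, PLIN1 and CIDEA were added after their values were seen. Promoters were to be shown for up to 3 members with non-overlapping groups in order of p; that of ELOVL5 lies almost wholly in exons of longer transcripts and was left out. Alternatives covered pseudocount, filter, variance estimate, scaling, replicate block, the column name letter and each library left out. Positions and overlaps came from GENCODE 29 (GRCh38), promoters from RefSeq (GRCh38.p14). Figures were drawn with matplotlib 3.10.9.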

Additional observations from a re-analysis of the deposited data

How the results depend on the processing

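Without counts, depth could not be weighed. The count of changed genes was 77 (37.7% higher). It was 10 with no filter, 18 with a mean of at least 0.1 TPM, 11 without trend and robust estimate, 30 with scaling by median of ratios, 17 with upper quartiles (52.9% higher), 207 with the letter term, 265 with replicates 2 and 3 alone, and 5 to 296 with 1 library left out. Dropping DMSO replicate 1, 2 or 3 gave 51, 14 or 7 genes, and dropping HFPO-TA replicate 1, 2 or 3 gave 296, 5 or 9. Members changed numbered 0, but 1 (MID1IP1) with the letter term, 4 with replicates 2 and 3 alone, and 0 to 4 with 1 library left out. Members at an unadjusted p under 0.05 numbered 15 (45.5% of the tested members, beside 12.0% of all tested genes). They numbered 8 to 16 with 1 library left out. Dropping HFPO-TA replicate 1, 2 or 3 gave 16, 9 or 8 members, beside 17.1%, 8.88% or 8.54% of all tested genes. The cause of these shifts was not tested.

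Replicate numbers are shared between groups, and deviations from the group means correlated at 0.184, 0.123 and 0.028 for equal numbers. On log2 values DMSO replicate 1 correlated at 0.981 with HFPO-TA replicate 1, and at 0.9795 and 0.9793 with DMSO replicates 2 and 3. The libraries of replicate 1 also share the column name letter, and whether equal numbers mark pairs is not known. With the replicate block 30 genes and 0 members passed (adjusted p 0.122 for SCD, 0.0755 for MID1IP1 and 0.0777 for CYB5A). HFPO-TA replicate 3 correlated best with DMSO replicate 2 (0.068), and the other libraries with their own number.

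Of 33 tested members 24 kept 1 sign under all 17 alternatives, and 9 turned, each with a log2 fold change whose 95% interval spans 0. SLC25A1 stood at 0.005 with median-of-ratios scaling, 0.009 with upper quartiles and 0.050 with replicates 2 and 3 alone, and FADS2 at 0.015, 0.019 and 0.024. With replicates 2 and 3 alone ACSS2 stood at -0.015, FASN at 0.019 and DGAT1 at -0.013. With 1 library left out the ranges were -0.052 to 0.049 for SLC25A1, -0.193 to 0.043 for FASN, -0.035 to 0.041 for FADS2, -0.092 to 0.002 for ELOVL6, -0.034 to 0.170 for TECR, -0.022 to 0.119 for AGPAT3, -0.078 to 0.126 for LPIN1 and -0.020 to 0.038 for DGAT1.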
